A study of Mus musculus with 7 samples.

Results

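The genes described here flank Tnc, the gene of the matrix glycoprotein tenascin-C, on mouse chromosome 4. They are Akna, Whrn, Atp6v1g1, Tnfsf15 and Tnfsf8 on one side of Tnc, and Pappa, Astn2, Trim32 and Tlr4 on the other. They were chosen by position, as probe sets listed under 1 of these symbols alone. Of the 9 genes 8 had such a probe set, out of 19937 genes on the array that had one. Whrn, which encodes a PDZ scaffold protein of sensory hair cells, had none listed here and is not analysed.

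The samples were fibroblasts from mouse embryos, and 7 clones were each hybridised to 1 Affymetrix array that reads whole transcripts. The knockout group held 2 clones from tenascin-C knock-out mice, and the knockdown group held 2 clones of wild-type origin that carried a stably transfected short hairpin RNA against tenascin-C. The wild-type group held 3 clones. Every clone had immortalised spontaneously and was kept for 2 days in medium with 10% serum, without treatment. Neither strain nor embryonic age is stated in the sources at hand. The labels do not tie the clones of a group to separate mice, so the p-values measure the spread between clones. No group with a control hairpin was analysed here.

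A mouse line made by gene targeting inherits, together with the disrupted gene, a stretch of the chromosome of the cells in which it was made. A hairpin acts on the RNA and leaves both alleles of its target and their surroundings as they were. The flanking genes were therefore compared in knockout and in knockdown, each against wild type, and between the 2 deficient groups. The genes themselves share no single pathway. Tnfsf8 and Tnfsf15 encode ligands of the tumour necrosis factor family, Tlr4 the cell-surface receptor for bacterial lipopolysaccharide, and Pappa a secreted protease that cuts insulin-like growth factor binding proteins. Astn2 encodes a membrane protein of migrating neurons, Trim32 a ubiquitin ligase, Atp6v1g1 a subunit of the proton pump of lysosomes and endosomes, and Akna an AT-hook protein found at centrosomes.

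In the RefSeq gene order, counted in annotated protein-coding genes, Tnfsf8, Tnfsf15, Atp6v1g1, Whrn and Akna were the first, the second, the sixth, the seventh and the eighth gene on one side of Tnc. Pappa, Astn2, Trim32 and Tlr4 were the first 4 genes on the other side. Trim32 lay inside the span of Astn2 and was read from the opposite strand. Promoter sequence was listed for 6 of the 9 genes in the RefSeq promoter table of GRCm38.p6. The 250 bases before the annotated start are printed for Tnc (the start nearer to the gene body) and for Tnfsf8, the first gene on one side. They are also printed for the nested pair Astn2 and Trim32. Capitals mark CG dinucleotides.
Tnc (chr4:64046937-64047186, minus strand): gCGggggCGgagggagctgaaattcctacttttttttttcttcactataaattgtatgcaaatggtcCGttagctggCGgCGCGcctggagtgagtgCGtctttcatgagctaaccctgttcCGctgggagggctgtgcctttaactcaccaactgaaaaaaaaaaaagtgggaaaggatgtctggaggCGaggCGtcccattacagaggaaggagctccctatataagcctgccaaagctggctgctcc
Tnfsf8 (chr4:63861285-63861534, minus strand): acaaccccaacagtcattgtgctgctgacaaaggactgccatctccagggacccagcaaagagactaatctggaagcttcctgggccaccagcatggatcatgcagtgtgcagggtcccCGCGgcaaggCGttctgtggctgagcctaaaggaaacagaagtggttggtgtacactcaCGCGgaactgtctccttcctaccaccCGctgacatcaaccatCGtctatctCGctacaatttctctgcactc
Astn2 (chr4:66404484-66404733, minus strand): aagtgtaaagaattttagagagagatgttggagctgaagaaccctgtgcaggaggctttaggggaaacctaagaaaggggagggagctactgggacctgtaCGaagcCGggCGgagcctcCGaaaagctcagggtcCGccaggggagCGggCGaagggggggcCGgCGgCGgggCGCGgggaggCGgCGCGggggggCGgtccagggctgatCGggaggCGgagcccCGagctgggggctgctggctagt
Trim32 (chr4:65604736-65604985, plus strand): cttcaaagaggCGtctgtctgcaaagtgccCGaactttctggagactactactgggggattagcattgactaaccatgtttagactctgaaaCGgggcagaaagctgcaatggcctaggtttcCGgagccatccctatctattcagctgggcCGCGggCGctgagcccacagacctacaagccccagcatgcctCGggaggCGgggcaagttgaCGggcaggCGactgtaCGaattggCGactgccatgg
These windows held 10 CG dinucleotides for Tnc, 8 for Tnfsf8, 19 for Astn2 and 13 for Trim32, against a median of 6 over 32851 windows of the same length. The letters TATAAA, searched on both strands, stood in the Tnc window and in none of the other 3, and in 12.4% of all windows. The letters GGGCGG, also searched on both strands, stood in the Tnc and Astn2 windows and in 32.7% of all windows.

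Tnc itself served as the check of the labels. Its log2 signal (probe set 10513739) was 8.05 and 8.51 in knockout and 7.34 and 6.52 in knockdown, against 10.89, 11.42 and 11.38 in wild type. All 4 deficient arrays lay below all wild-type arrays. Tnc fell by 2.95 on the log2 scale in knockout (limma, SE 0.295, adjusted p = 0.042) and by 4.30 in knockdown (SE 0.295, adjusted p = 0.0339). Both calls ended with any 1 array left out, at adjusted p of 0.0753 to 0.163 in knockout and 0.0948 to 0.297 in knockdown. They also ended with no filter (adjusted p = 0.0539 in knockout and 0.0577 in knockdown), with the replicate block (0.274 and 0.286), with only the groups compared (0.08 and 0.144) and without both arrays numbered 2 (0.156 and 0.244). The files do not tell whether the probes cover sequence missing from the knockout allele.

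None of the flanking genes passed the test in knockout or in knockdown. Of the 7 flanking genes that could be tested, limma called 0 in knockout against wild type, where 0.167% of 16801 genes were called (0.0476% as lower), and 0 had an unadjusted p under 0.05, as 12.8% of all genes did. The knockout arrays of all 7 overlapped the wild-type arrays, while those of 28.5% of all genes did not overlap. In knockdown against wild type limma also called 0 of 7, against 0.0179% of all genes, and 1, Trim32, had an unadjusted p under 0.05, against 14.1% of all genes. The knockdown and wild-type arrays of 4 of the 7 did not overlap, against 30.5% of all genes. The arrays of Trim32, Tlr4 and Atp6v1g1 lay wholly below wild type, as did those of 12.9% of all genes, and those of Astn2 wholly above, as did those of 17.5%. The median log2 difference over the 7 genes was 0.03 in knockout and 0.07 in knockdown, against -0.03 and 0.03 over all genes tested. Both comparisons share the wild-type arrays.

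**Figure D1:**
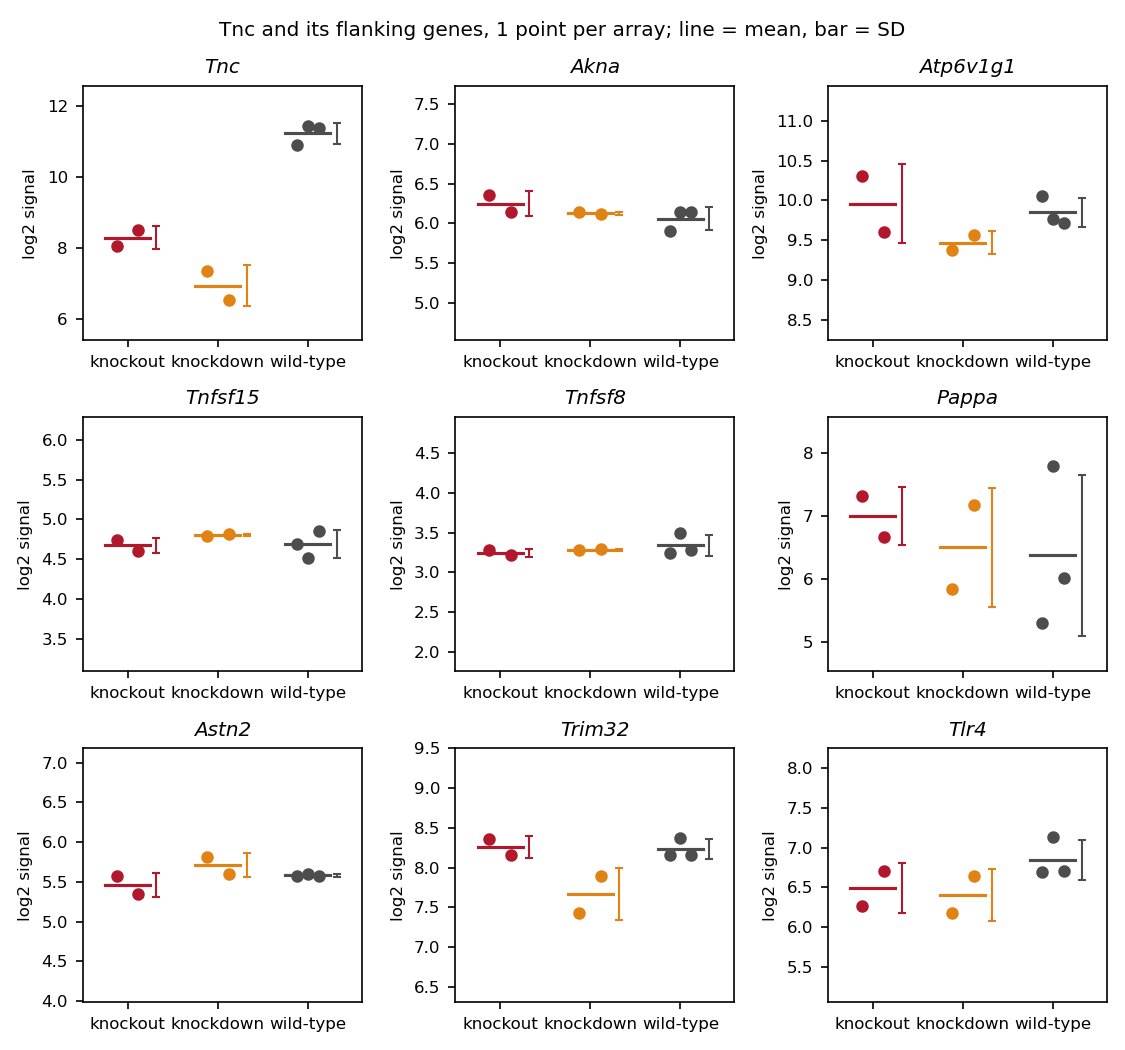
Log2 signal of Tnc and of the 8 flanking genes with a probe set, 1 point per array, in knockout (2 arrays), knockdown (2 arrays) and wild type (3 arrays), with the group mean as a line and the SD as a bar; the panels have different ranges on the vertical axis. Tnc is lower on all 4 deficient arrays, Trim32 is lower on both knockdown arrays only, and Pappa varies over 2.49 log2 units across clones of all groups.

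The tumour necrosis factor family ligands next to Tnc gave low signals in every group. Tnfsf8, which encodes the CD30 ligand of activated lymphocytes, had log2 signals of 3.28 and 3.21 in knockout and 3.28 and 3.29 in knockdown, against 3.25, 3.50 and 3.28 in wild type (probe set 10513729). All 7 values lay below the 25th percentile of their array (3.98 to 4.05), so Tnfsf8 did not enter the test. Fitted without a filter, it differed from wild type by -0.10 in knockout (SE 0.0916, adjusted p = 0.706) and by -0.06 in knockdown (SE 0.0916, adjusted p = 0.85). Tnfsf15, which encodes a ligand of the death receptor encoded by Tnfrsf25, had log2 signals of 4.74 and 4.61 in knockout and 4.79 and 4.82 in knockdown, against 4.69, 4.52 and 4.86 in wild type (probe set 10513722). These lay above the 25th percentile and below the median of every array, and all 4 deficient arrays lay within the wild-type range. Its log2 difference was -0.01 in knockout (SE 0.115, 95% interval -0.29 to 0.27, adjusted p = 0.974) and 0.12 in knockdown (SE 0.115, 95% interval -0.17 to 0.40, adjusted p = 0.699).

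Tlr4 had log2 signals of 6.27 and 6.71 in knockout and 6.18 and 6.64 in knockdown, against 6.69, 7.13 and 6.70 in wild type (probe set 10505517). Both knockdown arrays and knockout array 1 lay below all wild-type arrays, and knockout array 2 lay just inside the wild-type range. The log2 difference was -0.35 in knockout (SE 0.221, 95% interval -0.89 to 0.19, adjusted p = 0.544) and -0.43 in knockdown (SE 0.221, 95% interval -0.97 to 0.11, adjusted p = 0.45). In each deficient group the clones differed from one another by about as much as the group differed from wild type, with SDs of 0.313 in knockout, 0.325 in knockdown and 0.249 in wild type.

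Pappa varied most between clones among the 8 flanking genes. Its log2 signals were 7.33 and 6.67 in knockout and 5.84 and 7.18 in knockdown, against 5.31, 7.80 and 6.02 in wild type (probe set 10505489). The highest and the lowest values of all were both wild-type clones, and the groups overlapped throughout. The log2 difference of 0.62 in knockout (SE 0.78, adjusted p = 0.756) and of 0.13 in knockdown (SE 0.78, adjusted p = 0.964) both lay within the wild-type SD of 1.28. The 95% interval in knockout, from -1.28 to 2.52, was wide and left room for a fall or for a larger rise.

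Astn2 had log2 signals of 5.57 and 5.35 in knockout and 5.81 and 5.60 in knockdown, against 5.57, 5.60 and 5.57 in wild type (probe set 10513776). The knockdown values lay above wild type, though knockdown array 2 and wild-type array 2 were nearly equal. The log2 differences were -0.12 in knockout (SE 0.102, adjusted p = 0.637) and 0.13 in knockdown (SE 0.102, adjusted p = 0.622). The value 5.57 was identical to all deposited digits on 3 arrays. An identical value on at least 2 arrays occurred for 46.2% of all probe sets, and the wild-type SD of Astn2 was 0.018.

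Trim32, the gene nested in Astn2, had its lowest signals in knockdown. Its log2 signals were 8.36 and 8.16 in knockout and 7.43 and 7.89 in knockdown, against 8.16, 8.38 and 8.16 in wild type (probe set 10505512), with 1 value shared by 3 arrays. The knockout arrays lay within the wild-type range and both knockdown arrays below every other array. The log2 difference was 0.03 in knockout (SE 0.159, 95% interval -0.36 to 0.42, adjusted p = 0.957). In knockdown it was -0.57, a level 1.49-fold lower (SE 0.159, 95% interval -0.96 to -0.18, adjusted p = 0.22). Between knockout and knockdown it was 0.60 (SE 0.175, 95% interval 0.17 to 1.03, adjusted p = 0.177), and limma called 0 of the 7 flanking genes in that comparison, against 0.375% of all genes (0.101% as lower). Trim32 was also the 1 with an unadjusted p under 0.05 there, against 17.9% of all genes. The arrays of 4 of the 7 did not overlap there, against 45.0% of all genes. These were Trim32 and Atp6v1g1, higher in knockout, and Tnfsf15 and Astn2, lower in knockout. The intervals are not corrected for the number of genes.

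Atp6v1g1 had log2 signals of 10.31 and 9.61 in knockout and 9.37 and 9.57 in knockdown, against 10.06, 9.77 and 9.72 in wild type (probe set 10505461). Both knockdown arrays lay below all other arrays, and the knockout arrays lay on either side of the wild-type range. The log2 difference was 0.11 in knockout (SE 0.223, adjusted p = 0.863), -0.38 in knockdown (SE 0.223, 95% interval -0.92 to 0.17, adjusted p = 0.503) and 0.49 between knockout and knockdown (SE 0.244, adjusted p = 0.353). A second probe set listed under the symbol (10482330) gave 7.92 and 7.72 in knockout and 7.68 and 7.47 in knockdown, against 7.68, 7.44 and 7.92 in wild type. There the groups overlapped, at -0.11 in knockdown, so the probe sets did not give the same separation.

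Akna had log2 signals of 6.36 and 6.14 in knockout and 6.14 and 6.11 in knockdown, against 5.90, 6.14 and 6.14 in wild type (probe set 10513666). It had the same value on 4 of the 7 arrays, and all groups overlapped. The log2 difference was 0.19 in knockout (SE 0.112, adjusted p = 0.528) and 0.07 in knockdown (SE 0.112, adjusted p = 0.833).

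A wider stretch was described next, the 50 annotated protein-coding genes on each side of Tnc. Of these 100 genes 69 had a probe set and 59 were tested, 25 on the side of Tnfsf8 and 34 on the side of Pappa. In knockout against wild type limma called 0 of the 59. At an unadjusted p under 0.05, 10 were lower and 4 higher, against 924 lower and 1232 higher among all 16801 genes. The median log2 difference was -0.06, against -0.03 over all genes tested and -0.08 over the other 980 tested genes of chromosome 4. The knockout arrays lay below wild type for 14 of the 59 (23.7%, against 15.3% of all genes) and above it for 4 (6.78%, against 13.2% of all genes). For the other 980 genes of chromosome 4 these shares were 18.8% below and 5.92% above. Among those 980, 72 were lower and 29 higher at an unadjusted p under 0.05. Among the nearest 10 genes on each side, 15 were tested, 2 lay below wild type, the centrosome gene Cdk5rap2 and Megf9, and 0 lay above.

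Among neighbours whose knockout and wild-type arrays did not overlap, those with the largest differences lay mostly more than 25 genes from Tnc, on the side of Pappa, and none of them passed the test. Lurap1l had log2 signals of 9.97 and 9.75 in knockout, against 8.58, 9.14 and 8.40 in wild type (log2 difference 1.15, adjusted p = 0.185). Ttc39b had 8.64 and 8.60 in knockout, against 7.16, 7.67 and 7.67 in wild type (1.12, adjusted p = 0.145). Plin2, the gene of a lipid droplet coat protein, and Rgs3, which encodes a regulator of G-protein signalling, were the other 2 genes above wild type, at 0.38 (adjusted p = 0.308) and 0.34 (adjusted p = 0.364). Below wild type, the zinc finger gene Bnc2 stood at -1.29 (adjusted p = 0.354), Adamtsl1 at -0.95 (adjusted p = 0.391) and the receptor phosphatase gene Ptprd at -0.87 (adjusted p = 0.175). Frem1, a basement membrane gene, stood at -0.68 (adjusted p = 0.302) and Wdr31 at -0.47 (adjusted p = 0.132).

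**Figure D2:**
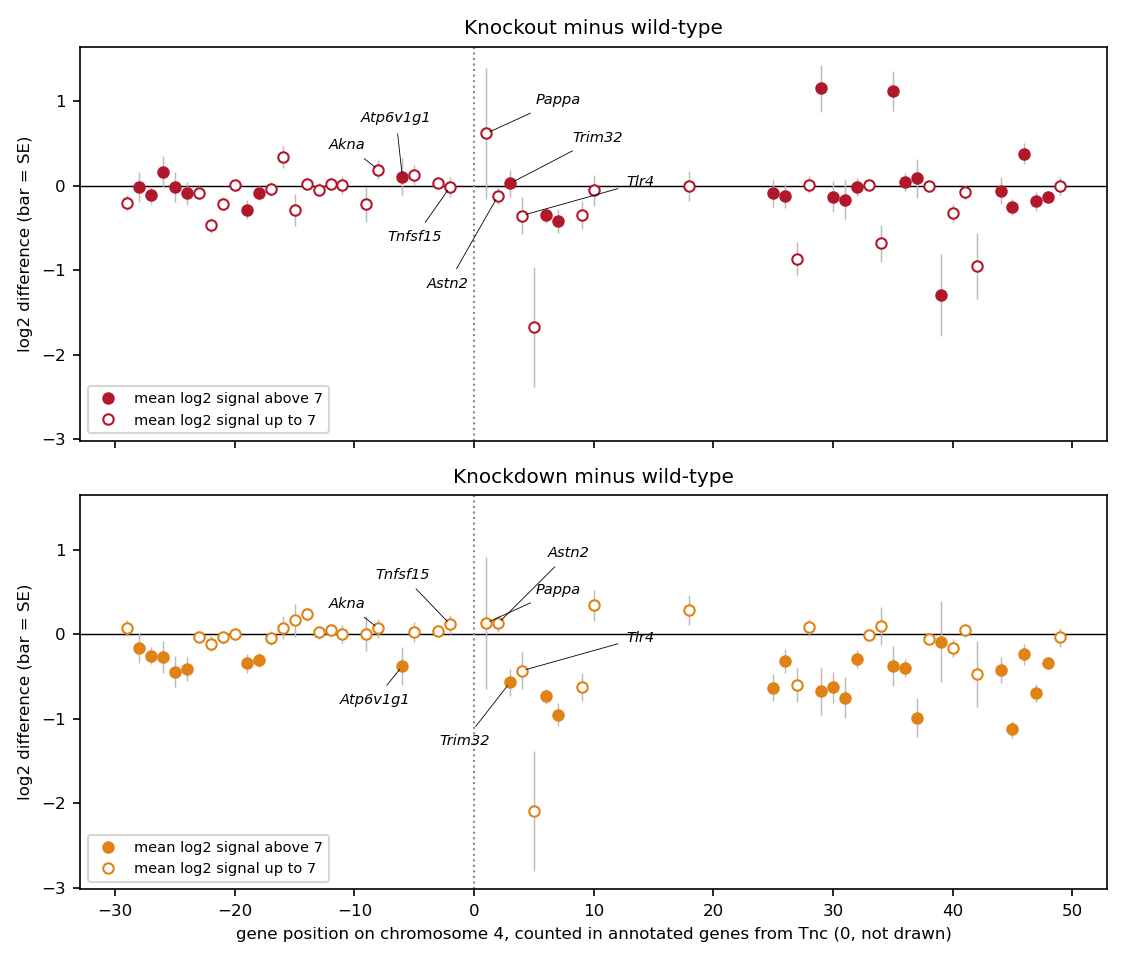
Log2 difference from wild type (bar, SE) of the 59 tested neighbours of Tnc, in knockout above and in knockdown below, against the position on chromosome 4 counted in annotated genes from Tnc; filled points have a mean log2 signal above 7, and Tnc is not drawn. In knockdown all 26 filled points lie below 0, and in knockout 18 of the 26 do.

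In knockdown the neighbours of Tnc with high signal all had estimates below wild type. Of the 59 tested neighbours 40 lay below the wild-type mean, with a median log2 difference of -0.17, against 0.03 over all genes. Limma called 0, with 22 lower and 1 higher at an unadjusted p under 0.05, against 1174 lower and 1197 higher among all 16801 genes. The knockdown median was 0.0039 over the nearest 10 genes on each side and -0.018 over the nearest 25. Of the 15 tested among the nearest 10 on each side, 7 had both knockdown arrays below wild type (46.7%, against 12.9% of all genes). For 1 of the 15 both lay above (6.67%, against 17.5% of all genes). The median was 0.03 over the 6 of them on the side of Tnfsf8 and -0.57 over the 9 on the side of Pappa. A cutoff at a mean log2 signal of 7 was added after the data were seen. All 26 neighbours above it lay lower in knockdown, at a median of -0.41, against -0.03 over all 7233 tested genes at that level. For 20 of these 26 both knockdown arrays lay below all wild-type arrays, against 22.4% of all genes at that level, and for 0 above, against 17.0%. The 33 tested neighbours at or below that signal had a median of 0.02. Each knockdown array by itself had all 26 below the wild-type mean, knockout array 1 had 9 and knockout array 2 had 22, so the 18 of 26 lower in knockout became 9 without knockout array 2, and wild-type arrays 1, 2 and 3 had 9, 8 and 23.

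The deficient groups were also compared with each other, without the wild-type means. Of the 26 neighbours, 25 were higher in knockout than in knockdown, at a median of 0.44, against 0.06 over all genes at that level. For 21 of them both knockout arrays lay above both knockdown arrays, against 30.4% of genes at that level. Of the other 408 genes of chromosome 4 at that level, 353 were higher in knockout, at a median of 0.30. For 64% of these 408 both knockout arrays lay above both knockdown arrays. The knockdown arrays are the same as in the comparison with wild type. Haus6, the gene of a mitotic spindle subunit, was the 1 of 59 tested neighbours called in any comparison, that of knockout against knockdown. There limma called 0.375% of all genes, and 6 of the other 980 tested genes of chromosome 4, all 6 higher in knockout. The log2 signals of Haus6 were 8.37 and 8.39 in knockout and 7.59 and 7.42 in knockdown, against 8.76, 8.63 and 8.52 in wild type. It was higher in knockout than in knockdown by 0.87 (SE 0.108, adjusted p = 0.0495), and that call ended with any 1 array left out (adjusted p = 0.0881 to 0.188). Against wild type Haus6 stood at -0.25 in knockout, with an adjusted p of 0.374, and at -1.13 in knockdown, with an adjusted p of 0.0928.

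Close to Tnc, 5 further genes on the side of Pappa beyond Tlr4 were measured, chosen for description after their values were seen. Cdk5rap2, another centrosome gene, had log2 signals of 7.72 and 7.59 in knockout and 7.17 and 7.37 in knockdown, against 8.01, 8.003 and 8.01 in wild type (-0.35 in knockout and -0.73 in knockdown, adjusted p = 0.204 and 0.1). Megf9 had 7.11 and 6.88 in knockout and 6.50 and 6.43 in knockdown, against 7.61, 7.44 and 7.20 in wild type (-0.42 and -0.95, adjusted p = 0.311 and 0.117). Both genes were below wild type on all 4 deficient arrays and lowest in knockdown. Brinp1, known from neurons, had 6.44 and 5.20 in knockout and 5.94 and 4.86 in knockdown, against 6.30, 7.78 and 8.39 in wild type, and varied by over 1 log2 unit within each group (-1.68 and -2.09, adjusted p = 0.403 and 0.286). The corepressor gene Tle1 stood at -0.35 and -0.63 (adjusted p = 0.454 and 0.208), and Aldoart1 at -0.05 and 0.34 (adjusted p = 0.92 and 0.466).

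The lower knockdown signal was not limited to the surroundings of Tnc. Above a mean log2 signal of 7, the cutoff added after the data were seen, chromosome 4 held 434 tested genes besides Tnc. Over these the median log2 difference from wild type was -0.39 in knockdown, with 386 lower, and -0.09 in knockout, with 299 lower. The median in knockdown was the lowest of the 19 autosomes and X measured here. The next lowest was that of chromosome X at -0.22, and the highest that of chromosome 2 at 0.27. In knockout chromosome 4 was the fourth lowest of these, in a range from -0.26 to 0.48. The neighbours of Tnc, at a median of -0.41, lay close to the other 408 genes of chromosome 4 at that level, at -0.38, and genes of the other chromosomes stood at -0.01.

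Taken by segment, the knockdown medians were similar along chromosome 4. Those of the 434 genes with a place in the protein-coding gene order were divided into 10 segments of 42 or 43 genes. The segment medians in knockdown ran from -0.45 to -0.30, and those in knockout from -0.22 to -0.02. The segment that holds Tnc stood at -0.40 in knockdown and -0.12 in knockout. Both knockdown clones showed it: over the other 408 genes the array medians relative to the wild-type mean were -0.43 and -0.32 in knockdown, -0.04 and -0.14 in knockout, and 0.09, 0.04 and -0.13 in wild type. With any 1 array left out the median of the 434 genes in knockdown stayed between -0.46 and -0.32, and without knockout array 2 and knockdown array 2, the 2 arrays with the lowest Y-linked signals, it was -0.43. This set of genes was tested only gene by gene, and limma called 0 of the 434 in knockdown against wild type, with 233 lower and 2 higher at an unadjusted p under 0.05, against 935 lower and 603 higher among all 7233 tested genes at that level.

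**Figure D3:**
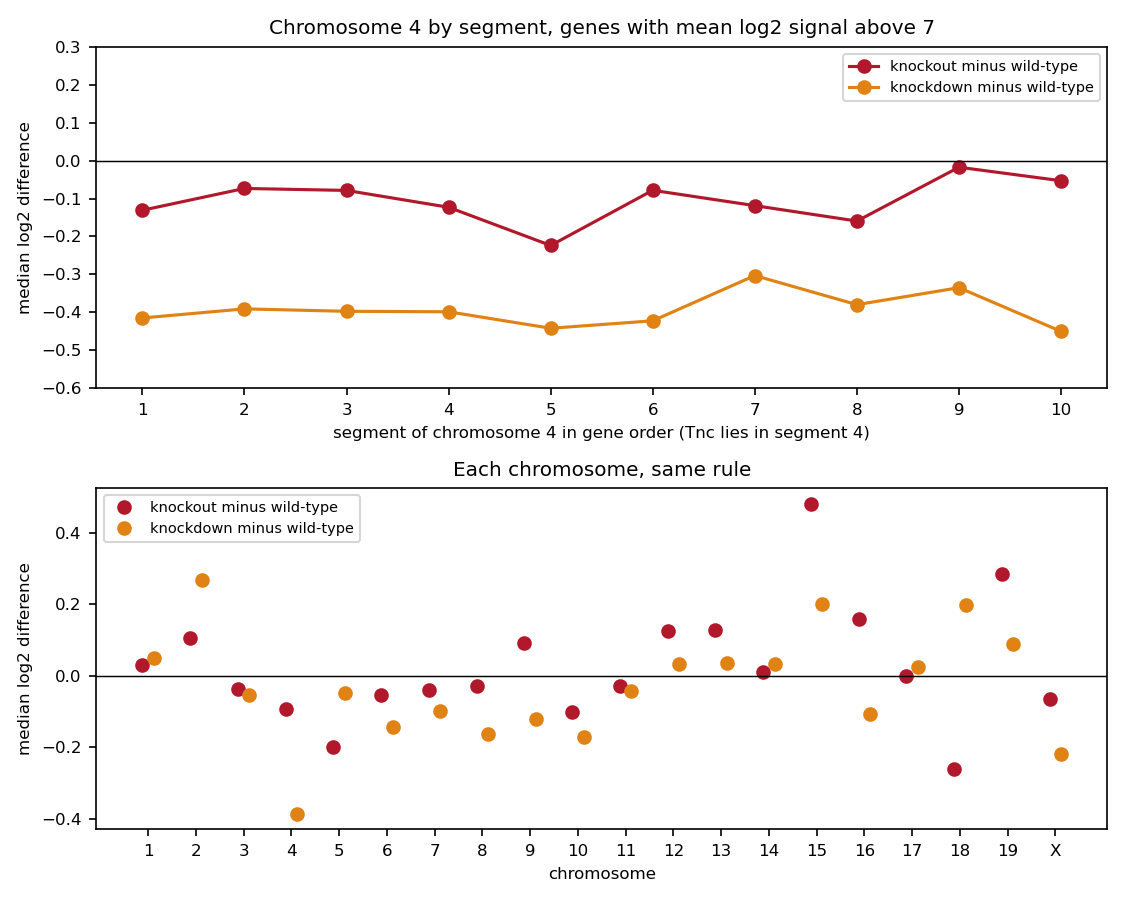
Median log2 difference from wild type in knockout and in knockdown, for genes whose mean log2 signal exceeded 7, by segment of chromosome 4 in gene order (top) and by chromosome (bottom). The knockdown medians lie between -0.45 and -0.30 in all 10 segments, and chromosome 4 has the lowest knockdown median of the chromosomes shown, at -0.39.

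Within chromosome 4, Trim32 and Atp6v1g1 lay among the bulk of the genes in knockdown. The middle range of the 434 genes, between the 25th and the 75th percentile, was -0.58 to -0.19, and both genes lay in it, at -0.57 for Trim32 and -0.38 for the probe set of Atp6v1g1 that was tested. The second probe set of Atp6v1g1, at -0.11, lay above that range. Of the 434 genes, 26% had a lower value than Trim32 and 51.4% a lower value than Atp6v1g1. In knockout 72.8% had a lower value than Trim32 and 80.2% a lower value than Atp6v1g1.

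The size of the shift depended on the signal. For chromosome 4 genes the knockdown median was 0.03 up to a mean log2 signal of 5, 0.04 from 5 to 6, -0.09 from 6 to 7, -0.31 from 7 to 8, -0.43 from 8 to 9 and -0.42 above 9, with 118 to 235 genes a band. The genes of the other chromosomes stayed between -0.04 and 0.06 in all 6 bands. The knockout medians of chromosome 4 lay between -0.13 and -0.04. Tnfsf8, Tnfsf15, Astn2, Akna, Pappa and Tlr4 all had mean signals below 7, where this comparison showed little or no shift.

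**Figure D4:**
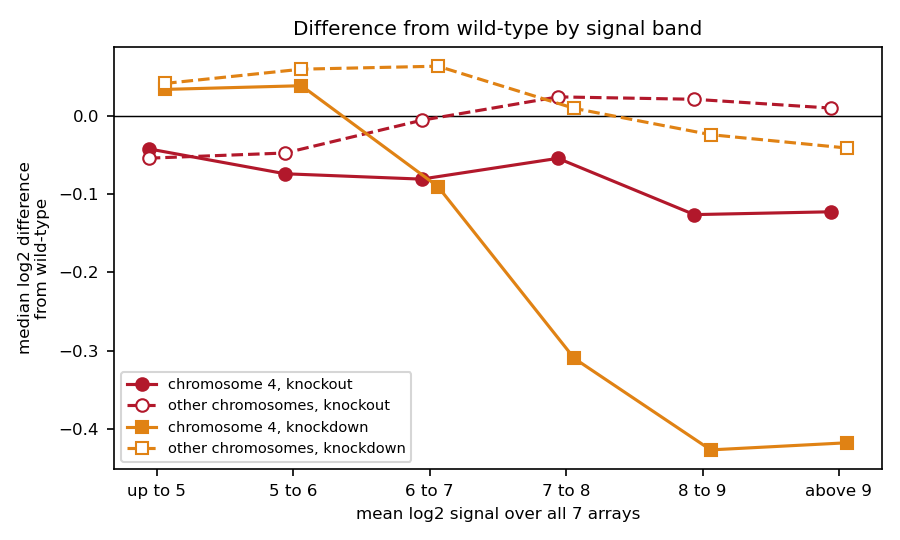
Median log2 difference from wild type of chromosome 4 genes (solid) and of genes on other chromosomes (dashed), in knockout and in knockdown, by band of mean log2 signal over the 7 arrays. The knockdown median of chromosome 4 lies near that of knockout from 6 to 7, at -0.09 against -0.08, and below the other lines above 7, at -0.43 from 8 to 9.

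The genes with the most similar profile over the 7 arrays were found among those that varied by at least 1 log2 unit, as a description with no test. Nearest to Trim32 were Bpnt2 (Pearson r = 0.983), Chmp5, a membrane remodelling gene (0.973), and Taf12, the gene of a general transcription factor subunit (0.949). All 3 lie on chromosome 4, outside the stretch of 50 genes on each side of Tnc, and their knockdown differences were -0.60, -0.96 and -0.90. Of the 50 genes nearest to Trim32, 27 lay on chromosome 4, a share of 54%, against 6.45% of the 2093 genes searched. Nearest to Tnc were Tbc1d9 (0.949), Dkk2 (0.942), which encodes a Wnt modulator, and Plaa (0.933), and of these Plaa lies on chromosome 4. Pappa was nearest to Aspn (0.960), Adamts1 (0.911) and Jag1 (0.901), and Tlr4 to Tox (0.912), Klhdc8a (0.909) and the probe set listed under Mir377 (0.884). With 7 arrays many genes reach such values, and the arrays share their normalization.

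Partners and relatives of the flanking genes were counted from lists, and limma called 0 of their members in any comparison. Over all genes it called 0.167% in knockout, 0.0179% in knockdown and 0.375% between knockout and knockdown. Of 14 tested genes of Tlr4 signalling, 0 were lower and 1 higher at an unadjusted p under 0.05 in knockout. In knockdown 2 were lower and 1 higher, and the medians were -0.02 and 0.007. Among all 16801 genes, 924 were lower and 1232 higher at that p in knockout, and 1174 lower and 1197 higher in knockdown. In knockdown the smallest p belonged to Map3k7, the gene of the kinase TAK1, which lies on chromosome 4 (-0.60, adjusted p = 0.188), and to Tab2, which encodes a TAK1-binding protein (-0.35, adjusted p = 0.265). In knockout they belonged to Tab1 (0.40, adjusted p = 0.312) and Tollip (0.22, adjusted p = 0.44). Of 13 tested ligands of the tumour necrosis factor family and receptors of Tnfsf8 and Tnfsf15, medians were -0.04 in knockout and 0.01 in knockdown. Tnfsf9, the ligand of 4-1BB, had log2 signals of 5.45 and 6.06 in knockout, against 4.58, 4.41 and 4.87 in wild type (1.13, adjusted p = 0.125), and Tnfsf18 stood at -0.78 (adjusted p = 0.324). In knockdown Ltb stood at 0.36 (adjusted p = 0.398) and Tnfsf13b at 0.20 (adjusted p = 0.473).

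Of 12 genes of the pappalysin and insulin-like growth factor axis, 9 were lower in knockout, at a median of -0.91, and 8 in knockdown, at a median of -0.10, against 57.4% and 43.2% of all genes. Igfbp3, a carrier of these growth factors, had log2 signals of 5.12 and 5.53 in knockout, against 7.02, 7.08 and 6.96 in wild type (-1.69, adjusted p = 0.117). Igf1, a growth factor gene of this axis, had 5.51 and 6.10 in knockout, against 7.08, 7.75 and 6.23 in wild type (-1.22, adjusted p = 0.357). In knockdown the smallest p belonged to Stc2, which encodes an inhibitor of pappalysin (-0.19, adjusted p = 0.436), and Igf1r (-0.14, adjusted p = 0.61). Pappa itself, the protease of this list's name, overlapped between groups.

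Of 16 tested subunits of the proton pump, 11 were higher in knockout (median 0.13) and 9 in knockdown (median 0.04). Among all 16801 genes, 7160 were higher in knockout and 9537 in knockdown. Atp6v1a, a catalytic subunit, stood at 0.48 in knockout (adjusted p = 0.13) and Atp6v1d at 0.52 (adjusted p = 0.326). In knockdown Atp6v0b, which lies on chromosome 4, stood at -0.58 (adjusted p = 0.224) and Atp6ap2 at -0.39 (adjusted p = 0.435). Of 6 tested whirlin partners 5 were lower in knockout and 2 in knockdown, against 57.4% and 43.2% of all genes. Their medians were -0.05 and 0.04. Among these, Myo7a, an unconventional myosin gene, stood at 0.88 in knockout and 0.43 in knockdown (adjusted p = 0.174 and 0.406), Eps8 at -0.43 in knockout (adjusted p = 0.569) and Mpp1 at -0.39 in knockdown (adjusted p = 0.465). Of the 5 paralogues of Astn2 and Trim32, 3 were lower in knockout and 2 in knockdown, against the same shares of all genes. Their medians were -0.05 and 0.03. Trim71 stood at 0.49 in knockout (adjusted p = 0.462), Trim2 at -0.31 in knockout and -0.22 in knockdown (adjusted p = 0.516 and 0.62), and Trim3 at 0.17 in knockdown (adjusted p = 0.685).

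The arrays were alike in scale, with medians of 5.38 to 5.49 and pairwise correlations of 0.979 to 0.990 over 34760 probe sets. Of 9 fibroblast markers 8 lay above the array median on all 7 arrays. The same held for 1 of 8 macrophage and blood markers, 0 of 5 lymphocyte, 1 of 6 endothelial, 1 of 6 epithelial and 2 of 6 neural and glial markers, and no marker was at 0. Summed linear signals of the macrophage and blood markers were 202.2 to 220.4 in knockout and 186.3 to 194.0 in knockdown, against 183.9 to 197.2 in wild type. Those of the lymphocyte markers were 88.8 to 96.4, 101.9 to 111.0 and 94.4 to 111.9 in the same groups. Xist reached 8.80 (log2) on knockout array 2, while the other 6 arrays gave 3.51 to 3.77. The Y-linked gene Uty was lowest on knockout array 2, at 3.14, and on knockdown array 2, at 4.98, with 6.75 to 8.02 elsewhere. Clones therefore differ within groups, and whether these differences bear on chromosome 4 was not tested beyond the values without both arrays. In bulk RNA, fewer cells expressing a gene and less RNA per cell cannot be told apart.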

How the data were processed

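Each of 7 arrays gave 1 column of log2 signal values, deposited by the authors; that they are log2 follows from their range. Per the submitters' processing notes, R 2.8.0 and the affy package were used; summarisation, background correction and normalization are not given in the sources at hand. Of 34760 probe sets, 21640 were listed with a single gene symbol, for 19937 genes; the probe set with the highest mean stood for a gene. The 16801 genes above the 25th percentile on at least 2 arrays were tested with limma 3.58.1 in R 4.3.3, with a mean for each of 3 groups over all arrays (two-sided, 4 residual degrees of freedom, prior 2.06) and Benjamini-Hochberg adjustment over all tested genes; adjusted p under 0.05 counts as called. The steps were tested on simulated data with changes of 1.5 and 3 log2 units added in knockout. Smaller changes, and shifts shared by many genes, were not simulated. RefSeq tables of GRCm38.p6 gave gene order, chromosome and promoters; 16744 tested genes matched. Precision is limited by the number of arrays. Named genes are the flanking genes, neighbours called or with the 5 largest separated differences each way in knockout, called partners or the 2 of smallest p per list, and the 3 most similar profiles; others are said to be chosen later. Alternatives covered filters, scaling, probe sets, weights, variance trend, replicate block, samples and window. The genes, lists and settings were chosen with earlier results of these data known.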

Additional observations from a re-analysis of the deposited data

Results flagged for a closer look

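Haus6 differed between the deficient groups by the test of the difference itself: it was higher in knockout than in knockdown by 0.87 on the log2 scale (SE 0.108, adjusted p = 0.0495), with both knockout arrays above both knockdown arrays. The direction held in all 17 alternatives, but Haus6 was called in only 3 of them.

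Lurap1l lay on opposite sides of wild type in the deficient groups. Its log2 signals were 9.97 and 9.75 in knockout and 7.71 and 8.35 in knockdown, against 8.58, 9.14 and 8.40 in wild type. The difference between knockout and knockdown was 1.83 (SE 0.303) and did not pass the test (adjusted p = 0.0792).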

How the results depend on the processing

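No flanking gene was called in any of 17 alternatives and 3 comparisons, and 329 of 354 values kept their direction. The exceptions were mostly near 0. Tnfsf15 in knockout was 0.047 with quantile normalization, 0.033 with median centring, 0.064 with array weights, 0.072 with the replicate block and 0.053 without both arrays numbered 2, and -0.10 to 0.072 with 1 array left out. Trim32 in knockout was -0.0084, -0.035 and -0.0076 with quantile normalization, array weights and the replicate block, and -0.071 to 0.13 with 1 array left out. Pappa was -0.011 in knockout with array weights, and in knockdown -0.50 with array weights, -0.047 with the replicate block and -0.54 without both arrays numbered 2. With 1 array left out, Pappa ran from -0.54 to 0.84 in knockdown and from -0.18 to 1.16 between knockout and knockdown, Atp6v1g1 from -0.24 to 0.46 in knockout, Akna from -0.013 to 0.11 in knockdown and Tlr4 from -0.15 to 0.31 between knockout and knockdown. Trim32 in knockdown stayed between -0.80 and -0.34 throughout.

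The 28 genes called in knockout became 79 with the stricter filter, 45 with quantile normalization and 71 with median centring. They became 2 with the replicate block, 6 with only the groups compared, and 3 to 14 with 1 wild-type array left out. The count stayed within 1.5 times with no filter (22), the mean of probe sets (36), array weights (26) and a variance trend (29). It moved by more without both arrays numbered 2, and with any 1 array left out except knockout array 1. Median centring moved the split of higher and lower calls from 20 and 8 to 61 and 10. The 3 called in knockdown became 0 with the replicate block (2206 at an unadjusted p under 0.05), with only the groups compared (2424), without both arrays numbered 2 (2512) and with any 1 array left out (1617 to 2606). The 63 called between knockout and knockdown became 38 with no filter, 111 with the stricter filter, 100 with quantile normalization, 137 with median centring, 18 with array weights, 26 with a variance trend, 2 with the replicate block, 0 with only the groups compared (2216 at an unadjusted p under 0.05), 1 without both arrays numbered 2, and 0 (without knockdown array 2) to 103 (without knockout array 2) with 1 array left out. Haus6 kept its direction between knockout and knockdown in all 17 alternatives (0.78 to 0.96) and was called in 3 of them, with adjusted p from 0.0388 to 0.307. Over the tested genes, the differences of array 1 minus array 2 were nearly uncorrelated between groups (0.002, -0.057 and 0.075). Such values cannot tell whether same-numbered clones shared a day or a batch.

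The median of the Tnc neighbours in knockout (-0.06) was -0.11 with the stricter filter, -0.0099 with median centring, -0.085 with the replicate block, 0.0035 without both arrays numbered 2, -0.087 over genes with a mean above 7, a setting added after the data were seen, and -0.13 to 0.0035 with 1 array left out. In knockdown (-0.17) it was -0.081 with no filter, -0.34 with the stricter filter, -0.20 with median centring, -0.23 with array weights, -0.27 with the replicate block, 0.0039 for the nearest 10 and -0.018 for the nearest 25 genes on each side, -0.41 over genes with a mean above 7, and -0.28 to -0.15 with 1 array left out. Signal near background limits what the low genes can show.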
